A study of Mus musculus with 21 samples.

Results

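Patrolling monocytes were followed as the cells that carried the label Monocyte (Patrolling) after integration of all samples with Harmony, and 11670 of the 87822 cells in the tables carried it. The tables covered 21 libraries, each from the tibialis anterior muscle of 1 female C57BL/6J mouse aged 20 months. There were 4 uninjured mice, and the injured ones were taken in groups of 4 at 1 and 3.5 days after injury (dpi) and in groups of 3 at 2, 5 and 7 dpi. No transgene or other treatment is named in the labels. Injury was made with notexin, a toxin of tiger snake venom that breaks down muscle fibers, after which the tissue regenerates. Digested muscle was profiled by droplet single-cell RNA sequencing (10x Chromium v3), where a random tag on each transcript, the unique molecular identifier (UMI), lets transcripts be counted. The uninjured mice supplied 3 of the patrolling monocytes, and the mice at 1, 2, 3.5, 5 and 7 dpi supplied 1333, 4509, 4161, 1381 and 283. The tables hold labels and summary values for each cell. Expression of single genes was not analysed here, so the label was not checked against Ctsa, Ctsl and Ctsb, which encode lysosomal cathepsins and were the markers set for these cells.

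Monocytes are phagocytes that leave the bone marrow, circulate in blood and can become macrophages or dendritic cells in tissue. In mice, classical monocytes carry high Ly6C and the chemokine receptor Ccr2 and enter injured tissue, where they take up debris and release inflammatory cytokines. Patrolling, or nonclassical, monocytes carry low Ly6C and high Cx3cr1, the fractalkine receptor, depend on the nuclear receptor Nr4a1 and crawl along the inner wall of blood vessels. That is the textbook cell of this name: the study marks its patrolling monocytes as negative for Cx3cr1 and Ly6c2, so the label here is not to be read as Cx3cr1-high blood monocytes. In toxin-injured muscle, neutrophils arrive early, monocytes and macrophages follow and clear the remains of myofibers, and macrophages of a repair type, here labelled M2, come to prevail as new fibers form.

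The libraries differed in depth and in how much of the sequence came from cells, and these values differed between the time points, while their part in the results was not tested. Each library held between 5602464 and 70730171 UMIs. The reads assigned to cells made up 48.6% ± 5.60 (SD, n = 4) of the total in uninjured mice and 94.6% ± 0.265 (n = 4) at 3.5 dpi, and sequencing saturation was 64.5% ± 16.9 and 41.1% ± 6.96 in the same groups. The ambient RNA fraction that was subtracted lay between 0.013 and 0.062 in the 21 libraries. Over the 210 pairs of libraries, 10 barcodes of patrolling monocytes were found in both libraries of a pair, at most 0.763% of the smaller one. The labels name no batch, and each library belongs to 1 time point, so differences between libraries and between time points cannot be told apart beyond the spread among replicates.

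Patrolling monocytes were almost absent from uninjured muscle, made up 23.1% to 26.3% of all cells at 2 and 3.5 dpi, and fell back by 7 dpi. In the uninjured mice the share of all cells was 0%, 0.0293%, 0.0398% and 0% in replicates A to D. The counts of 0 allow shares of up to 0.132% in replicate A and 0.308% in replicate D (3 cells of the total, counting error only). At 1 dpi the share was 10.5%, 6.68%, 13.6% and 8.55%, so each of these 4 mice stood above the 4 uninjured ones. This rests on the Harmony label, since BBKNN named 0.0120% ± 0.0140 of all cells patrolling at 1 dpi and 0% in uninjured mice, and Scanorama named 0.328% ± 0.1502 at 1 dpi and a higher 0.529% ± 0.370 in uninjured mice (n = 4 each). The share by the Harmony label was 24.3%, 26.3% and 23.1% at 2 dpi and 24.8%, 26.2%, 25.2% and 25.6% at 3.5 dpi. All 7 mice stood above the highest at 1 dpi, while the groups at 2 and 3.5 dpi overlapped with each other. The share was 11.3%, 7.32% and 6.03% at 5 dpi and 1.49%, 3.09% and 2.78% at 7 dpi, with no overlap between 3.5, 5 and 7 dpi. Counting error was small against these differences: the exact Clopper-Pearson 95% interval was 23.3% to 26.4% in replicate A at 3.5 dpi and 1.20% to 1.83% in replicate A at 7 dpi.

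**Figure D1:**
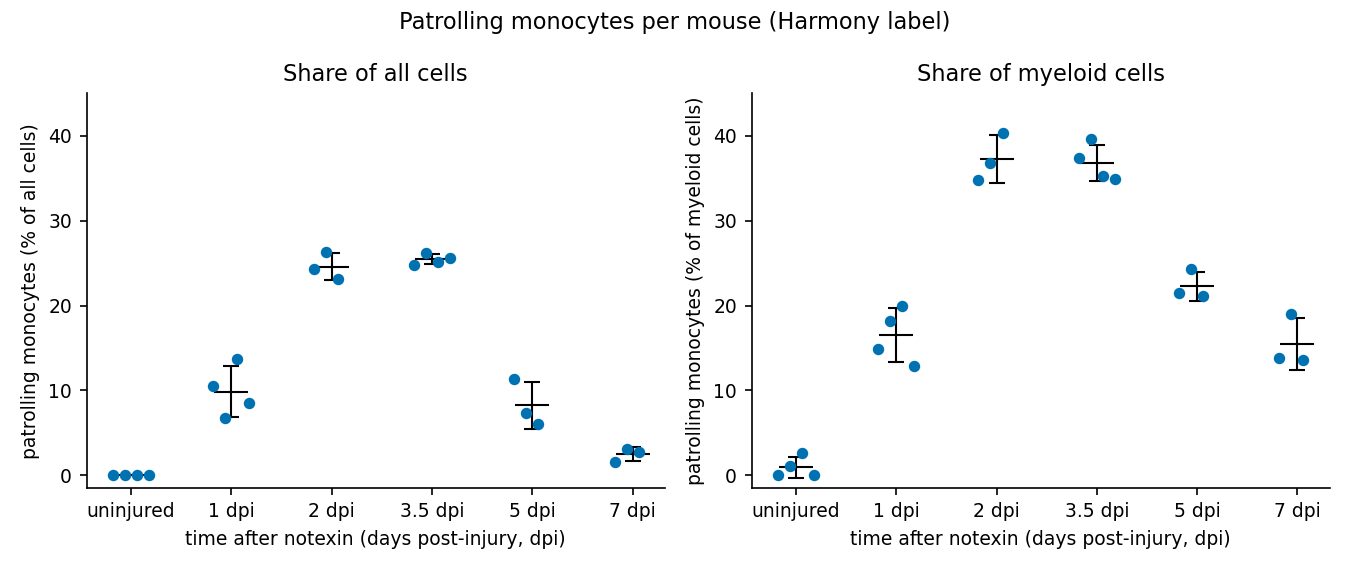
Patrolling monocytes by mouse as a percent of all cells (left) and of myeloid cells (right) in uninjured muscle and at 1, 2, 3.5, 5 and 7 dpi. Points are mice, and bars give the mean and SD of each group. The mice at 2 and 3.5 dpi lie between 23.1% and 26.3% of all cells, above those of the other time points, and the uninjured mice lie at or below 0.0398%.

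The share of all cells changed over the 6 time points (permutation test of F on arcsine square root shares, p = 1e-05, the smallest that 100000 resamples can give, Benjamini-Hochberg adjusted p = 4.6e-05 over the 23 Harmony cell types). Such a change was common, as 78.3% of the 23 types passed the same test. Mean shares were 0.0173% ± 0.0204 (SD, n = 4), 9.85% ± 2.98 (n = 4), 24.6% ± 1.62 (n = 3), 25.4% ± 0.586 (n = 4), 8.21% ± 2.75 (n = 3) and 2.45% ± 0.848 (n = 3) in order of time. Patrolling monocytes were the most frequent of the 23 types in 3 of 3 mice at 2 dpi and in 4 of 4 at 3.5 dpi, and in 0 of the 14 mice of the other groups.

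Against the 4 uninjured mice, which all these comparisons share, the groups did not overlap at any time point and the two-sided exact permutation test gave 0.0286 each time, the smallest p it allows. After adjustment over the 23 types the comparison at 3.5 dpi passed the threshold of 0.05 (difference 25.4 points, exact permutation test, adjusted p = 0.0346), as did 82.6% of the types. Since the unadjusted p was the same each time, which time point passed was set by how many types reached the smallest p. These were 19 at 3.5 dpi and fewer at the others, so the adjusted p does not set 3.5 dpi apart for patrolling monocytes. This call was lost with immune cells as the denominator (adjusted p = 0.0571, exact permutation test). The groups did not overlap there either, with at most 1.85% in uninjured mice and at least 32.1% at 3.5 dpi. With labels permuted within replicate letters (adjusted p = 0.137, exact permutation test) the call had to be lost. Each letter holds 1 mouse of either group, which leaves too few splits for a p under 0.05. The exact permutation tests at 1, 2, 5 and 7 dpi gave adjusted p of 0.0657, 0.0597, 0.0505 and 0.0548 for differences of 9.84, 24.6, 8.20 and 2.44 points, and 0.0% of the types passed at these time points. At an unadjusted p under 0.05 the types numbered 10, 11, 13 and 12, and edgeR's quasi-likelihood test on the numbers of cells called 14, 19, 17 and 13 types, or 15, 19, 16 and 10 without TMM scaling. With edgeR, patrolling monocytes passed in all 5 comparisons with uninjured muscle.

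Between successive time points no type passed after adjustment (0.0% of 23 in each of the 4 exact permutation tests). Patrolling monocytes differed by 14.7 points from 1 to 2 dpi (p = 0.0286, adjusted p = 0.329, exact permutation test), by 0.870 points from 2 to 3.5 dpi (p = 0.4, adjusted p = 0.511), by -17.2 points from 3.5 to 5 dpi (p = 0.0286, adjusted p = 0.0939) and by -5.76 points from 5 to 7 dpi (p = 0.1, adjusted p = 0.256). The sign of the difference from 2 to 3.5 dpi turned in 7 alternatives, among them myeloid cells as the denominator and the stricter filter on cells. The smallest p of the exact test for 3 against 3 mice is 0.1. Types under an unadjusted p of 0.05 numbered 2, 5, 7 and 0. edgeR called 1, 1, 5 and 0 types with TMM and 2, 1, 3 and 2 without it, with patrolling monocytes called from 3.5 to 5 dpi by both (adjusted p = 0.000151 and 0.00632).

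The early mice (1 and 2 dpi) were set against the late ones (5 and 7 dpi). In the 7 early mice the share of all cells had a lowest value of 6.68%, a median of 13.6% and a highest of 26.3%, and in the 6 late mice 1.49%, 4.56% and 11.3%, so the groups overlapped between 6.68% and 11.3%. The mean was 16.2% ± 8.20 (SD, n = 7) early and 5.33% ± 3.64 (n = 6) late, a difference of -10.8 points (two-sided exact permutation test, p = 0.0111, adjusted p = 0.0232). Of the 23 types, 52.2% passed this test 21.7% as lower late and 30.4% as higher late. The call was lost without 7 dpi replicate A, B or C (exact permutation tests, adjusted p = 0.0528, 0.0502 and 0.0528), and it turned with the labels of the other integration methods, whose shares are given further on.

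Shares were also taken among myeloid cells. Myeloid cells are here the 3 monocyte labels, both M2 macrophage labels, neutrophils and dendritic cells. Patrolling monocytes made up 0%, 1.10%, 2.63% and 0% of them in uninjured mice, 14.8%, 18.2%, 19.9% and 12.9% at 1 dpi, 34.8%, 36.8% and 40.4% at 2 dpi and 37.4%, 39.6%, 35.2% and 34.9% at 3.5 dpi. At 5 dpi the values were 21.4%, 24.3% and 21.1%, and at 7 dpi 13.8%, 19.0% and 13.6%. The 7 dpi mice thus fell within the range at 1 dpi, from 12.9% to 19.9%, whereas their share of all cells was below that of each mouse at 1 dpi. The early and late means among myeloid cells, 25.4% ± 11.5 (n = 7) and 18.8% ± 4.35 (n = 6), did not differ past the threshold (adjusted p = 0.269, exact permutation test). By RNA, patrolling monocytes held 38.2% ± 2.61 (n = 3) of all UMIs at 2 dpi and 2.75% ± 1.19 (n = 3) at 7 dpi.

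The 3 cells with the label in uninjured muscle came from replicates B (1 cell) and C (2 cells), out of 11683 uninjured cells of which 211 were myeloid. They held 3360, 4646 and 3668 UMIs and 26.2%, 10.4% and 18.0% mitochondrial UMIs. In the 17 injured mice the median patrolling monocyte held 5621 to 23678 UMIs and 2.12% to 8.12% mitochondrial UMIs. BBKNN named all 3 cells M2 Macro. (Cx3cr1_hi) and Scanorama named all 3 patrolling monocytes.

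Ratios to another label of the same mouse do not depend on how many nonmyeloid cells were captured, and they placed patrolling monocytes against the other phagocytes. Inflammatory monocytes, a name usually given to the classical, cytokine-producing kind, outnumbered patrolling monocytes at 1 dpi, with 0.527, 0.556, 0.71 and 0.372 patrolling cells per inflammatory cell. The ratio was 1.72, 1.93 and 3.05 at 2 dpi and 3.74, 3.63, 2.50 and 2.65 at 3.5 dpi, so patrolling cells were the more numerous in these 7 mice. It was 1.72, 2.17 and 1.80 at 5 dpi and 0.967, 1.66 and 0.851 at 7 dpi, where 2 of the 3 mice were again below 1.

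On the log2 scale with 0.5 cells added, the mean ratio to inflammatory monocytes was -3.60 ± 1.24 (SD, n = 2) in the uninjured mice with at least 10 cells of both types together, -0.92 ± 0.38 at 1 dpi (n = 4), 1.11 ± 0.44 at 2 dpi (n = 3), and 1.62 ± 0.30 at 3.5 dpi (n = 4). It was 0.91 ± 0.18 at 5 dpi and 0.15 ± 0.51 at 7 dpi, with 3 mice each. The ratio changed over the time course (permutation test, p = 1e-05, adjusted p = 2.5e-05 over 5 ratios). The late mice were 0.58 higher than the early ones on this scale, a difference that did not pass (exact permutation test, p = 0.276), although it passed with the labels of BBKNN (p = 0.0251) and of Scanorama (p = 0.00117).

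Ratios to the 4 other myeloid labels were chosen after seeing the data. Against M2 macrophages labelled Cx3cr1_hi, patrolling monocytes were in excess at 1 and 2 dpi, with a mean log2 ratio of 0.89 ± 0.33 (n = 4) and 1.75 ± 0.18 (n = 3), and near parity at 5 and 7 dpi, with -0.03 ± 0.16 and -0.37 ± 0.49 (n = 3 each). The late minus early difference was -1.47 (exact permutation test, p = 0.00117, adjusted p = 0.00583 over 5 ratios), and the mice of the groups did not overlap, since the early ones lay at or above 0.50 and the late ones at or below 0.14. This ratio rests on the Harmony labels. BBKNN gave the M2 Cx3cr1_hi name to 32.3% to 91.0% of a mouse's Harmony patrolling monocytes at 5 and 7 dpi, and to 0% at 1 and 2 dpi. The part of the labels in the difference was not tested. Against neutrophils, the early-arriving granulocytes, the mean log2 ratio was -0.19 ± 0.37 in the 4 mice at 1 dpi, 3.48 ± 0.74 in the 3 at 2 dpi and 4.74 ± 0.50 in the 4 at 3.5 dpi. Each of the 5 ratios changed over the time course (permutation tests, adjusted p of 2.5e-05 to 0.00258), and early and late mice did not differ past the threshold for Cxcl10+ monocytes, M2 Cx3cr1_lo macrophages or neutrophils (exact permutation tests, adjusted p = 0.274, 0.0568 and 0.131).

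**Figure D2:**
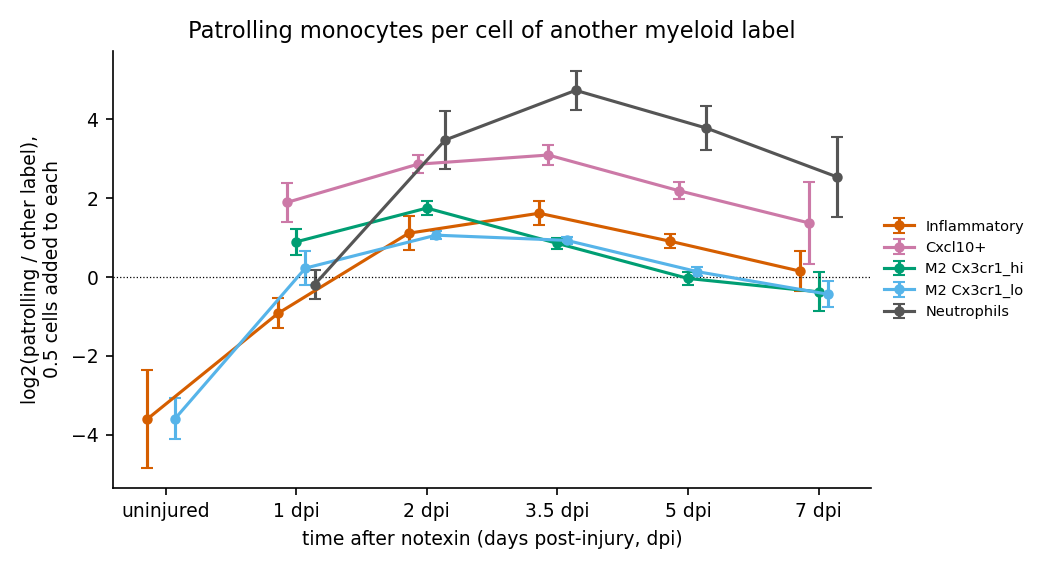
Log2 ratio of patrolling monocytes to 5 other myeloid labels of the same mouse, with 0.5 cells added to each number, as the mean and SD of the mice with at least 10 cells of both labels together. The dotted line marks equal numbers. The ratio to inflammatory monocytes has its highest mean, 1.62, at 3.5 dpi and the ratio to M2 Cx3cr1_hi macrophages its highest mean, 1.75, at 2 dpi. The uninjured group holds 2 mice and is drawn for 2 labels.

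The study integrated the same cells by 3 methods, Harmony, BBKNN and Scanorama, and named clusters after each one separately. A cell can thus have 3 names, although 3897 cells had no Harmony label. Those cells were counted among all cells in the shares. The names of the Harmony patrolling monocytes differed between methods by time point. BBKNN called them Monocyte (Infiltrating) at 1 and 2 dpi, mostly patrolling at 3.5 dpi, and increasingly M2 Macro. (Cx3cr1_hi) at 5 and 7 dpi. Scanorama called them mostly Monocyte (Inflammatory) at 1 dpi, Monocyte (Infiltrating) at 2 dpi and patrolling from 3.5 dpi onwards. Infiltrating is a name for monocytes that have entered tissue, and no Harmony label carries it.

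With BBKNN the percent of a mouse's patrolling monocytes that kept that name was 0, 0, 0 and 0.305 at 1 dpi, 2.77, 2.64 and 7.88 at 2 dpi and 76.8, 70.1, 69.5 and 69.4 at 3.5 dpi. It was 23.8, 43.5 and 48.8 at 5 dpi and 0, 24.4 and 25.4 at 7 dpi. The 4 mice at 3.5 dpi stood above the 13 others, and replicate A at 7 dpi had none of its 89 cells under that name. Named infiltrating by BBKNN were 91.5%, 80.0%, 94.8% and 85.7% at 1 dpi, 97.2%, 97.2% and 92.0% at 2 dpi and 23.0%, 29.5%, 28.4% and 29.3% at 3.5 dpi, and then 18.0%, 22.6% and 13.1% at 5 dpi and 6.74%, 7.63% and 11.1% at 7 dpi. The 7 mice at 1 and 2 dpi did not overlap with the 10 later ones. Named M2 Macro. (Cx3cr1_hi) were 55.7%, 32.3% and 36.9% at 5 dpi and 91.0%, 64.1% and 55.6% at 7 dpi, against at most 1.47% in the 11 earlier injured mice.

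With Scanorama the percent that kept the name was 0, 0, 0.971 and 0.915 at 1 dpi and 0.585, 1.16 and 2.85 at 2 dpi. It was 95.6, 91.6, 88.5 and 92.1 at 3.5 dpi, 91.7, 91.0 and 92.5 at 5 dpi and 95.5, 94.7 and 92.1 at 7 dpi, so the 7 early mice lay at or below 2.85% and the 10 later ones at or above 88.5%. Named inflammatory at 1 dpi were 83.4%, 56.2%, 69.6% and 82.3%, against at most 0.744% in the 13 later mice. Named infiltrating were 98.8%, 97.9% and 96.7% at 2 dpi, which stood above the 16.3% to 43.8% at 1 dpi and the 2.25% to 10.6% at later time points.

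These shares changed over the 5 injured time points for patrolling and infiltrating monocytes under both methods (permutation tests over 17 mice, adjusted p = 2e-05 for BBKNN and 7e-05 for Scanorama over the 4 shares). Leaving out any 1 of the 17 mice kept each adjusted p between 2e-05 and 0.00018. With the labels held by at least 5% of the cells, a limit chosen after seeing the data, the M2 Cx3cr1_hi name under BBKNN and the inflammatory name under Scanorama also changed (permutation tests, adjusted p = 2e-05 and 3e-05). The names rest on clusters of the same transcriptomes, and the libraries of a time point share it, so a difference among the cells and a difference between libraries that 1 method removed and another kept cannot be told apart.

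**Figure D3:**
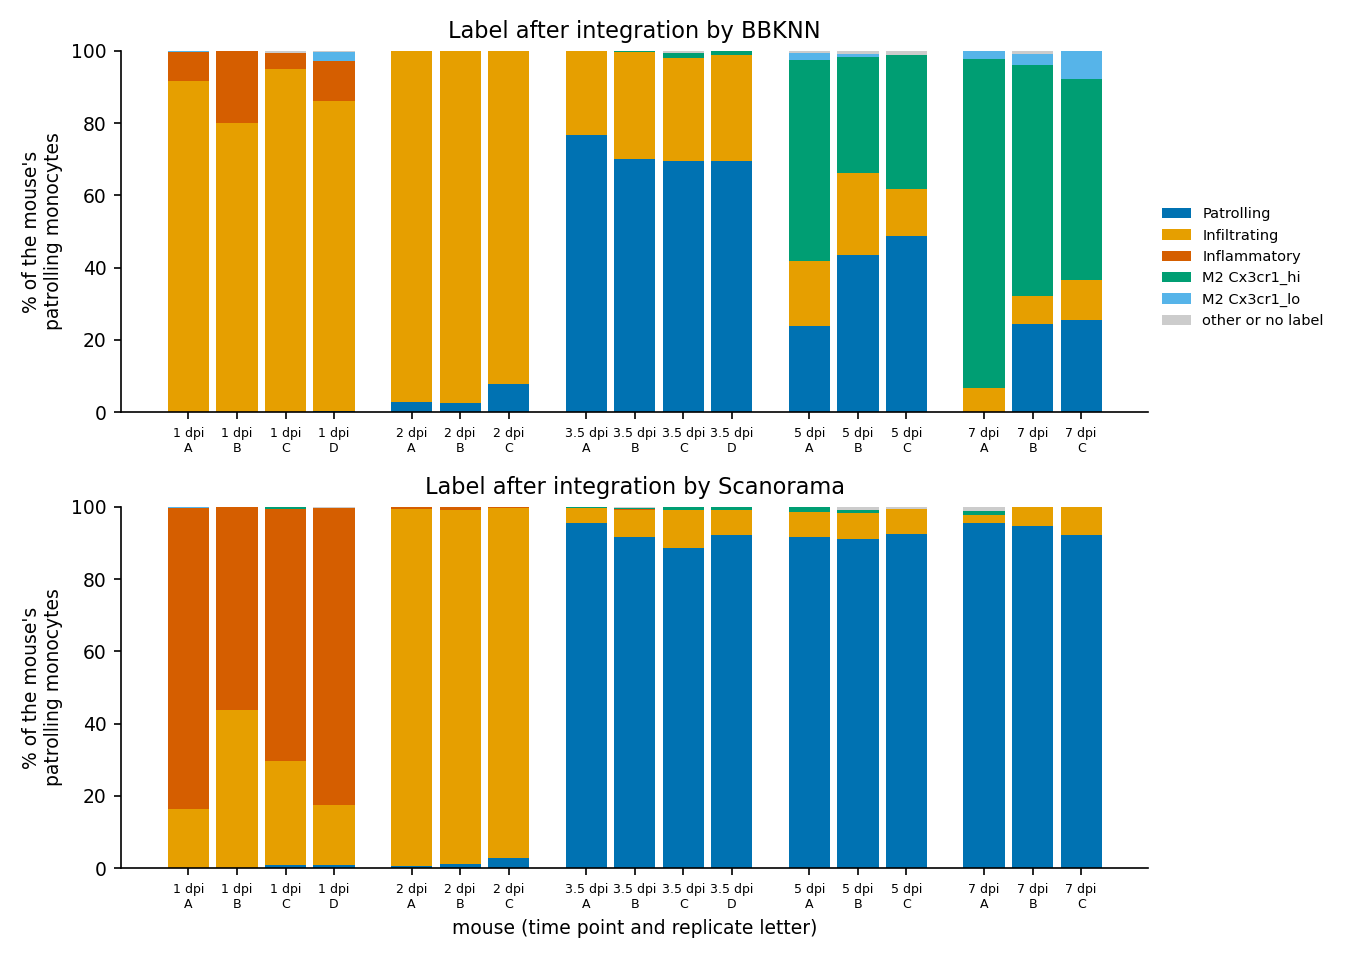
Names that BBKNN (top) and Scanorama (bottom) gave to the Harmony patrolling monocytes of each of the 17 injured mice, as stacked percents of that mouse's cells. BBKNN names 80.0% to 97.2% of them infiltrating at 1 and 2 dpi and 55.6% to 91.0% M2 Cx3cr1_hi at 7 dpi. Scanorama names 88.5% to 95.6% of them patrolling from 3.5 dpi onwards.

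The 3 methods accordingly differed in the share of all cells that they named patrolling monocytes before and after 3.5 dpi. At 2 dpi the mean was 24.6% ± 1.62 with Harmony, 2.99% ± 2.34 with BBKNN and 2.88% ± 1.82 with Scanorama (n = 3). At 3.5 dpi it was 25.4% ± 0.586, 26.0% ± 2.77 and 60.8% ± 2.66 (n = 4), and at 7 dpi 2.45% ± 0.848, 0.533% ± 0.464 and 10.6% ± 2.52 (n = 3). A change over the time course was common to the 3 methods (permutation tests, adjusted p = 4.6e-05, 6.75e-05 and 0.00012). The highest mean stood at 3.5 dpi with each of them, which these tests do not address. With Harmony the mice at 2 and 3.5 dpi overlapped, and among myeloid cells the mean was higher at 2 dpi (37.3% against 36.8%). The early and late comparison was not common to the 3 methods: the late mean was 0.635 points higher than the early one with BBKNN (1.92% ± 1.56 against 1.29% ± 2.09, exact permutation test, adjusted p = 0.5002) and 18.8 points higher with Scanorama (20.2% ± 12.7 against 1.42% ± 1.73, adjusted p = 0.00335).

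Of the 5190 cells that BBKNN named patrolling, 70.4% were Harmony patrolling monocytes, 13.8% were M2 Cx3cr1_lo and 10.1% were M2 Cx3cr1_hi macrophages by Harmony. Of the 16725 that Scanorama named patrolling, 32.2% were Harmony patrolling monocytes, 25.6% M2 Cx3cr1_hi, 22.4% M2 Cx3cr1_lo and 9.66% inflammatory monocytes. Under all 3 methods 3379 cells were patrolling monocytes, or 29.0% of those with the Harmony label, and 2856 of them came from 3.5 dpi, 459 from 5 dpi, 44 from 7 dpi, 20 from 2 dpi and 0 from 1 dpi or uninjured muscle. As a percent of all cells they were 18.8, 17.9, 16.8 and 17.05 in the 4 mice at 3.5 dpi, 2.42, 3.03 and 2.75 at 5 dpi and 0, 0.684 and 0.663 at 7 dpi, in groups that did not overlap.

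**Figure D4:**
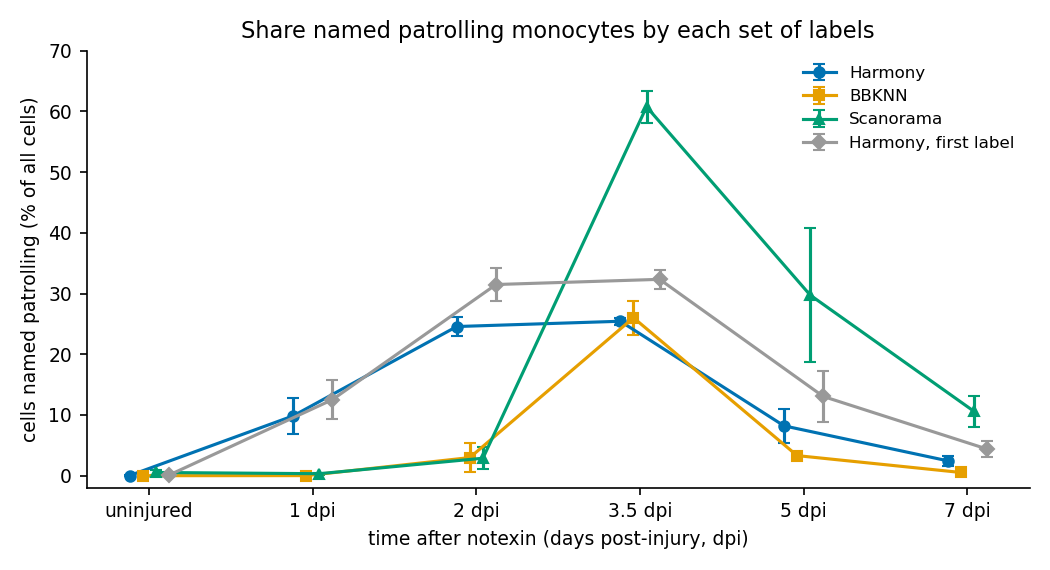
Mean and SD over mice of the percent of all cells named patrolling monocytes at each time point by Harmony, BBKNN, Scanorama and the earlier Harmony label. The 3 final methods have their highest mean at 3.5 dpi (25.4%, 26.0% and 60.8%), and Harmony alone of the 3 is above 20% at 2 dpi.

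The tables also hold an earlier label for each cell, given before a noisy cluster was removed and the data were integrated again. It named 15651 cells patrolling monocytes, of which 10789 (68.9%) kept the name and 2106 (13.5%) had no final Harmony label. Conversely, 92.5% of the final patrolling monocytes had the name at first. Counted by the earlier label, mean shares of all cells were 12.5% ± 3.17, 31.5% ± 2.65, 32.3% ± 1.52, 13.1% ± 4.18 and 4.40% ± 1.25 in order of time over the injured groups of 4, 3, 4, 3 and 3 mice. The time course passed with it (permutation test, adjusted p = 7e-05), and the early and late comparison did not (exact permutation test, adjusted p = 0.05997). Both uses of the earlier label were chosen after seeing the data.

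Patrolling monocytes were RNA-rich among the myeloid cells, which is a description, since clusters were drawn from the same RNA. Their median UMI number per cell was above that of the other myeloid cells in 17 of 17 injured mice, by a median of 0.68 on the log2 scale (0.07 to 0.92). At 1 dpi it was 15110, 12780, 11234 and 14861 in replicates A to D, at 2 dpi 6690, 12908 and 16997, and at 3.5 dpi 21448, 23678, 12558 and 15157. At 5 dpi it was 10907, 8237 and 15780 and at 7 dpi 5621, 9919 and 9881, so that the 3 mice at 7 dpi lay below the 4 at 1 dpi and the 4 at 3.5 dpi but overlapped with those at 2 and 5 dpi. Neither UMIs nor genes per cell passed the test over the time course (permutation tests, adjusted p = 0.129 and 0.167), where 40.4% of the 230 pairs of a cell type and a measure did. Median genes per cell ranged from 1933 to 4299 over the 17 mice. The other myeloid cells were a mix of labels that changed with time, as given further on. The part of that mix in the UMI difference was not tested.

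Cells of 1 mouse covered a wide range. The ratio of the 90th to the 10th percentile of UMIs per cell had a median of 3.16 over the 17 mice (2.42 to 6.71), and that of the mitochondrial share 3.48 (1.93 to 5.65). Few of these cells were at the low end: 47 (0.403%) had under 750 genes, the minimum that the study's methods name, against 6.42% of all cells. A stricter filter, with minima of 1000 genes and 2000 UMIs and a maximum of 15% mitochondrial UMIs, kept 97.6% of the patrolling monocytes and 75.5% of all cells. All 87822 cells were called singlets, and the mean of the median doublet score of patrolling monocytes was 0.197 ± 0.0144 (n = 4) at 3.5 dpi and 0.0812 ± 0.0202 (n = 3) at 7 dpi, beside 0.197 ± 0.00648 and 0.0913 ± 0.0315 for all cells.

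The deposited percents give, for each cell, the share of UMIs from gene sets such as mitochondrial genes, ribosomal protein genes or transcription factors. Of the 10 measures tested, 4 changed over the injured time points: the mitochondrial, protein coding, ribosomal protein and transcription factor shares. This is near the 40.4% of the 230 pairs of a cell type and a measure that passed, so such changes were not particular to patrolling monocytes. Mitochondrially encoded transcripts, which encode parts of the respiratory chain and rise as a share in damaged cells, were 2.42%, 3.33%, 2.12% and 3.79% of UMIs at 1 dpi and 4.27%, 3.93% and 3.75% at 2 dpi. At 3.5 dpi they were 4.56%, 4.73%, 3.40% and 4.36%, at 5 dpi 3.59%, 3.38% and 4.28%, and at 7 dpi 8.12%, 5.70% and 6.49%. The 3 mice at 7 dpi stood above the 14 earlier ones, and the others overlapped. The change over time had an adjusted p of 0.00307 (permutation test), and the late mean, 5.26%, was not past the threshold against the early one, 3.37% (exact permutation test, adjusted p = 0.138). The time course lost its call in cells of 5000 to 15000 UMIs (adjusted p = 0.0603, permutation test) and in cells named patrolling by all 3 methods (adjusted p = 0.11), a smaller test over the 9 mice with at least 10 such cells, none of them at 1 or 2 dpi.

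The protein coding share of UMIs was 94.4%, 93.2%, 95.5% and 95.2% at 1 dpi, 94.5%, 94.2% and 94.2% at 2 dpi, 94.97%, 95.1%, 95.2% and 95.4% at 3.5 dpi, 93.8%, 93.7% and 93.1% at 5 dpi and 91.7%, 91.9% and 91.7% at 7 dpi. The mice at 7 dpi lay below the 14 others, in the same libraries in which the mitochondrial share was high, and the part of the one in the other was not tested. The change over time had an adjusted p of 0.00307 (permutation test). This was the single measure of the 10 to pass between early and late mice (94.4% against 92.7%, difference -1.79 points, exact permutation test, adjusted p = 0.0464), where 10.5% of 219 pairs passed. It was lost without any 1 of 10 mice (exact permutation tests, adjusted p = 0.0527 to 0.108), namely 1 dpi replicates A, C and D, the 3 mice at 2 dpi, 5 dpi replicate C and the 3 mice at 7 dpi.

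Ribosomal protein transcripts, which encode the protein part of ribosomes, were 7.37%, 6.99%, 8.24% and 8.26% of UMIs at 1 dpi, below the 13 later mice, which lay between 8.66% and 10.3%. Group means were 7.71% ± 0.636 (n = 4), 9.15% ± 0.306 (n = 3), 9.42% ± 0.521 (n = 4), 9.95% ± 0.345 (n = 3) and 9.45% ± 0.503 (n = 3) in order of time. The change had an adjusted p of 0.00566 (permutation test), or 0.631 in the cells named patrolling by all 3 methods, whose 9 mice leave out 1 and 2 dpi, and early and late mice did not differ past the threshold (8.33% against 9.70%, exact permutation test, adjusted p = 0.0664).

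Transcripts of transcription factors, the proteins that bind DNA and set which genes are read, were lowest at 3.5 dpi, with 2.14%, 2.17%, 2.56% and 2.31% of UMIs, below the 13 other mice. At 2 dpi they were 2.84%, 2.67% and 2.62%, and at 5 dpi 2.84%, 2.93% and 2.91%. The mice at 7 dpi (3.57%, 3.16% and 3.26%) and replicates A and B at 1 dpi (3.1% and 3.79%) stood above those at 2 and 5 dpi. Replicates C and D at 1 dpi (2.92% and 2.81%) lay within the range of the mice at 2 and 5 dpi. The change had an adjusted p of 0.00559 (permutation test) and no early or late difference passed (exact permutation test, adjusted p = 0.631).

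Heat shock protein transcripts, which encode chaperones that fold proteins under stress, were 0.692% ± 0.0473 (n = 4) of UMIs at 1 dpi and 0.524% ± 0.0296 (n = 4) at 3.5 dpi, in groups that did not overlap (0.625% to 0.735% and 0.492% to 0.557%). Over all 5 time points the change did not pass (permutation test, adjusted p = 0.122), and it passed without 7 dpi replicate A (adjusted p = 0.0267, permutation test), which had the highest value, 0.757%. The lincRNA, antisense and bidirectional promoter lncRNA shares did not pass (permutation tests, adjusted p = 0.289, 0.461 and 0.375). snoRNA, miRNA and snRNA shares had a median of 0 in nearly all mice, were not tested, and had means between 0.00178% and 0.00497% in the 5 groups.

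Other myeloid cells of the same mice showed much of the same course, as the plot of the medians shows. They were a mix of labels that changed with time. Neutrophils made up 18.8% ± 3.34 of myeloid cells at 1 dpi and 1.41% ± 0.442 at 3.5 dpi (n = 4 each). M2 Cx3cr1_hi macrophages made up 8.73% ± 0.592 and 20.3% ± 1.16 in the same groups. The part of this mix in the differences below was not tested. In 17 of 17 mice the ribosomal protein share was lower in patrolling monocytes than in the other myeloid cells (median difference -1.72 points, -2.66 to -0.634). The transcription factor share was lower in 16 of 17 mice, with 1 dpi replicate B as the exception, by a median of -0.727 points. The mitochondrial difference was -1.02 points ± 0.371 (n = 3) at 2 dpi and 0.407 ± 0.653 (n = 3) at 7 dpi. Relative to the other myeloid cells, 2 of the 10 measures changed over the time course, mitochondrial and protein coding (permutation tests, adjusted p = 0.0467 for each), and 0 between early and late mice (exact permutation tests, 1 at an unadjusted p under 0.05). Both calls lay just under the threshold and were lost when any 1 of most of the mice was left out. The mitochondrial one was lost without any 1 of 12 mice (permutation tests, adjusted p = 0.0662 to 0.144), which were the 4 at 3.5 dpi, 1 dpi replicates A, C and D, 2 dpi replicates A and B, 5 dpi replicate C and 7 dpi replicates A and C. The protein coding call was lost without any of these 12 mice or 5 dpi replicate B (permutation tests, adjusted p = 0.0662 to 0.144), and the sign of its late minus early difference, 0.0682 points, turned without 1 dpi replicate B, 5 dpi replicate B or 5 dpi replicate C.

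**Figure D5:**
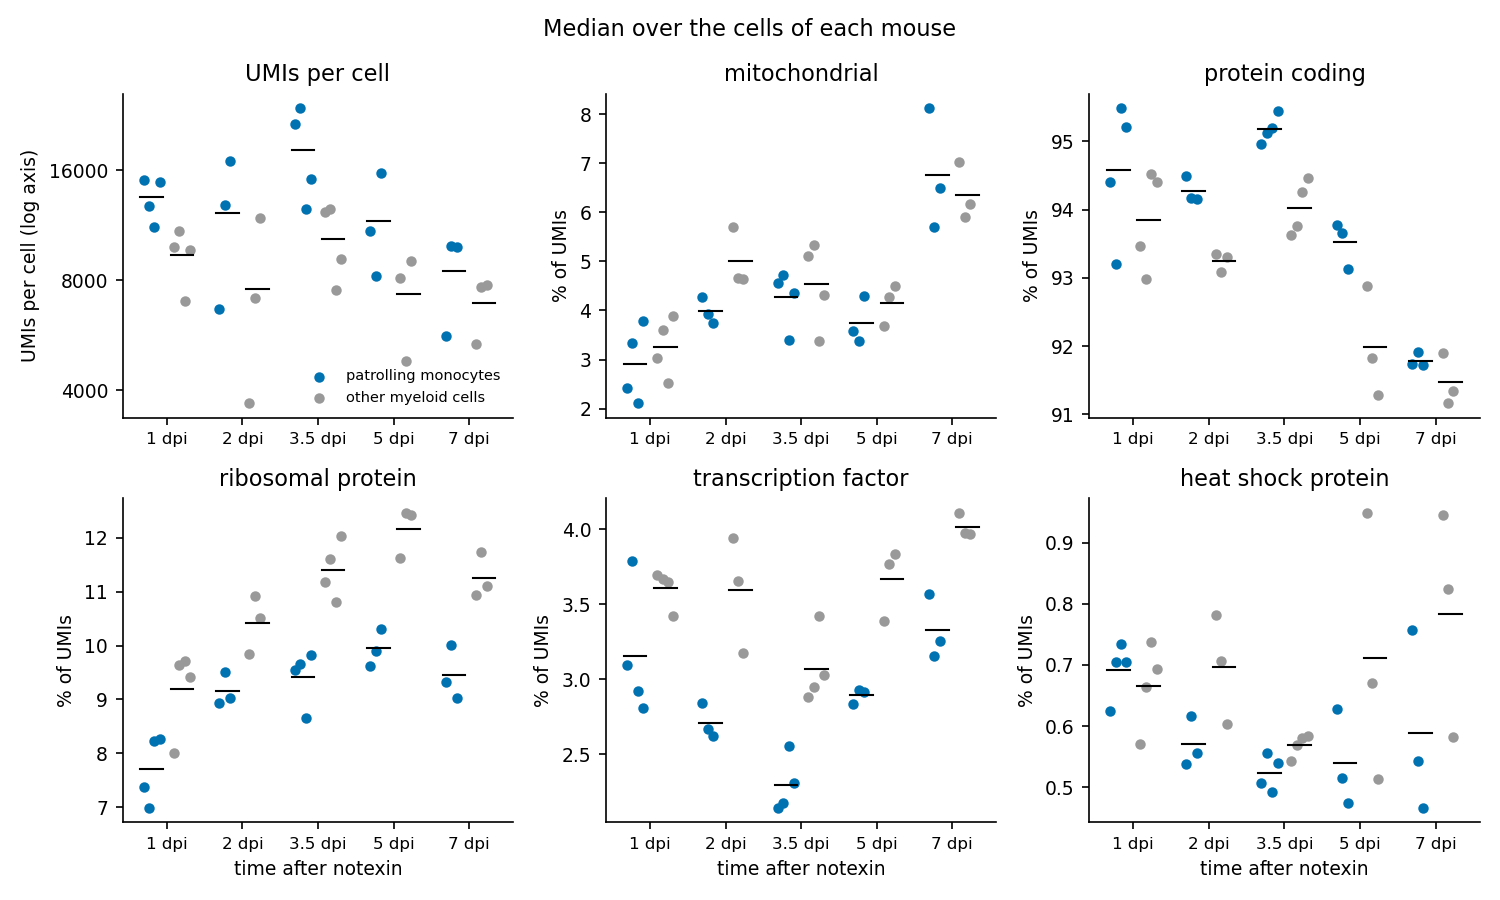
Median over the cells of each injured mouse of UMIs per cell (log axis) and of 5 shares of UMIs, for patrolling monocytes (blue) and the other myeloid cells of the same mouse (grey), with black lines for group means. Axes do not start at 0. The patrolling monocytes of 7 dpi mice have the highest mitochondrial shares (5.70% to 8.12%), those of 1 dpi mice the lowest ribosomal protein shares (6.99% to 8.26%), and the grey ribosomal points lie above the blue ones of their mouse in all 17 mice.

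Within the Harmony label, cells of the same mice with different BBKNN names differed in some of these measures, given here as a description. At 3.5 dpi the 1157 cells that BBKNN named infiltrating had a heat shock protein share of 0.613% ± 0.0594 (mean of 4 mouse medians) and a ribosomal protein share of 8.88% ± 0.549, and the 2952 cells it named patrolling had 0.493% ± 0.0193 and 9.61% ± 0.542. The ranges over the 4 mice did not overlap for heat shock proteins (0.529% to 0.668% and 0.475% to 0.513%) and overlapped for ribosomal proteins (8.08% to 9.27% and 8.83% to 10.0%). They also overlapped for the other measures, such as UMIs per cell (12932 to 26333 and 12483 to 22671) and transcription factors (2.08% to 2.57% and 2.16% to 2.54%). Ranges across mice do not use the pairing of both names within a mouse, and differences within each mouse were not examined. At 5 dpi the 594 cells named M2 Cx3cr1_hi had a transcription factor share of 3.13% ± 0.123 (n = 3), above the 2.66% ± 0.131 of the 491 cells named patrolling and the 2.76% ± 0.0536 of the 269 cells named infiltrating. Their lowest mouse, at 2.98%, was above the highest mouse of either other group, 2.82%.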

How the data were processed

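Reads were mapped by the authors against mm10 (Cell Ranger 3.1.0). They subtracted ambient RNA with SoupX, filtered cells, scored doublets with DoubletFinder and processed the samples in Seurat (3.1.5 per the submitters' notes), then integrated them with Harmony, BBKNN and Scanorama within a larger compendium and named clusters after each. The deposited UMI totals per cell are estimated counts after ambient subtraction and were not rounded. The deposited gene, read and barcode numbers are whole counts. Per the file headers, gene set values, saturation and reads in cells are percents of UMIs or reads, and the ambient RNA and doublet scores are fractions computed by the authors. Gene-level values were not used here.

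Cells were selected by the Harmony label, and the mouse was the unit. Shares were compared on the arcsine square root scale, over time by 100000 permutations of F and between groups by two-sided exact permutation tests, with Benjamini-Hochberg adjustment over 23 types. A single 4 against 4 or 4 against 3 comparison cannot go below p = 0.0286 by the exact test. Per-cell measures were medians per mouse with at least 10 cells (log2 for UMIs and genes), adjusted over all pairs of a type and a measure, or over 10 measures relative to other myeloid cells. Log2 ratios had 0.5 cells added. The threshold was 0.05. Intervals are exact Clopper-Pearson 95% intervals and cover counting error only. As an alternative, edgeR 4.0.16 (R 4.3.3) was run on the numbers of cells per mouse and type. Other steps used Python 3.11.15 with numpy 2.4.6, pandas 2.3.3, scipy 1.17.1 and matplotlib 3.10.9, and the tests were tested on simulated data. No gene was named by a rule, since no gene was tested. The cells, label lists, measures and tests were chosen with earlier results of these data known.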

Additional observations from a re-analysis of the deposited data

Results flagged for a closer look

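Of 36 groups of 4 mice examined, 3 held a mouse that lay apart from the others by Dixon's test, which chance gives in about 1 in 20 groups. At 3.5 dpi, replicate A had 23.0% of its patrolling monocytes named infiltrating by BBKNN, against 28.4% to 29.5% in the other mice, and 76.8% named patrolling, against 69.4% to 70.1%. Both values come from the same cells of 1 mouse. At 1 dpi, replicate D had 0.305% of its patrolling monocytes named patrolling by BBKNN, which is 1 cell, and the other mice had 0%.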

How the results depend on the processing

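The time course of the share kept an adjusted p of 3.83e-05 to 5.75e-05 without any 1 mouse. The cause of the changes below was not tested. Early against late, the adjusted p of the share was 0.5002 with BBKNN and 0.00335 with Scanorama labels, both with a higher late mean, and 0.269 among myeloid cells, 0.0655 with labels permuted within replicate letters (replicate block) and 0.05997 with the earlier label. Against uninjured mice, a centred log ratio gave 0.0411, 0.0365 and 0.0387 at 1, 2 and 5 dpi, edgeR with TMM 3.16e-13, 1.53e-14, 1.92e-11 and 1.56e-08 and without it 1.08e-12, 1.06e-13, 2.62e-12 and 2.87e-10 at 1, 2, 5 and 7 dpi, immune cells as the denominator 0.0476 at 1 and 0.0571 at 3.5 dpi, and the replicate block 0.137 at 3.5 dpi. Between successive time points, myeloid cells as the denominator gave 0.04 and edgeR without TMM 0.0155 from 1 to 2 dpi, edgeR gave 0.000151 with and 0.00632 without TMM from 3.5 to 5 dpi, and edgeR without TMM 0.00537 from 5 to 7 dpi. At 1 dpi against uninjured mice Scanorama labels turned the sign (0.583). From 2 to 3.5 dpi it turned with a centred log ratio (0.37), with labelled (0.92), immune (0.667) or myeloid cells (0.8286) as the denominator, with at least 750 genes (0.896), the stricter filter (0.0939) and unlabelled cells counted by the earlier label (0.438). The early and late ratio to inflammatory monocytes had 0.0251 with BBKNN and 0.00117 with Scanorama labels. The mean correlation was -0.0172 over 48 same-letter pairs of mice (-0.798 to 0.732) and 0.0012 over 135 others (-0.808 to 0.872). With such a spread it cannot show whether the letters pair the mice. The study states that several time points were collected at once, and the labels do not give the day. The replicate block left 0 measures between early and late. Means over cells in place of medians gave 2 measures between early and late, 7 relative to other myeloid cells over time and 2 relative between early and late. A minimum of 5 cells gave 0 between early and late. The relative time course had 4 measures with the stricter filter, 6 in cells of 5000 to 15000 UMIs and 0 in cells named patrolling by all 3 methods, which had 2 over time and came from 9 mice at 3.5, 5 and 7 dpi. Relative protein coding turned its early to late sign in cells of 5000 to 15000 UMIs (adjusted p = 0.0301, permutation test). Leaving out 1 mouse gave adjusted p of 0.0145 to 0.0528 for early against late and, for relative protein coding, 0.0107 to 0.144. Among relative measures that did not pass, the early to late sign turned with means over cells for transcription factors (0.726 over time, 0.956 early against late) and antisense RNA (0.0502, 0.165), with the stricter filter for bidirectional promoter lncRNA (0.267, 0.105), and in cells of 5000 to 15000 UMIs for UMIs (0.284, 0.779), genes (0.469, 0.779), bidirectional promoter lncRNA (0.0443, 0.354) and protein coding early against late (0.779). It also turned without single mice, where the ranges over time and early against late were 0.131 to 0.567 and 0.667 to 0.969 for transcription factors, 0.295 to 0.843 and 0.646 to 0.969 for bidirectional promoter lncRNA, 0.126 to 0.776 and 0.667 to 0.978 for antisense RNA, and 0.667 to 0.969 early against late for protein coding. Leaving out 1 mouse gave 0 to 1 measures between early and late, 0 to 4 relative over time and 0 to 1 relative between early and late. With 3 against 3 mice the exact permutation test cannot give a p under 0.1. The replicate block cannot pass at 3.5 dpi against uninjured mice, since each letter holds 1 mouse of either group. In the cells of all 3 methods, early and late mice could not be compared, since too few early mice held enough cells.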
